A study of Mus musculus with 36 samples.

Results

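Interferon-stimulated genes were followed in cultured mouse astrocytes exposed to dexamethasone, a synthetic glucocorticoid. The set was a list of 35 genes, and each was represented by the probe carrying its symbol with the highest mean intensity over 36 arrays. A probe existed for 33 of the 35 genes, and no probe for Isg15 or Xaf1 was found under their symbols or RefSeq synonyms. After a filter on dim probes 30 members were tested, among 20625 tested genes of 30833 with a probe. The cultures came from newborn C57B/6 pups, were labelled as cortical (the growth protocol names cortex or hippocampus), and received dexamethasone at about 100 nM, or vehicle. RNA was taken after 0.25 and 1 h, after 2, 4 and 6 h, and after 12, 18 and 24 h. Each treatment had 3 arrays at 2 h, 3 at 4 h and 2 at every other time, 18 in all per treatment. No interferon, virus or other stimulus is named for either treatment, so every comparison concerns the level of these genes in otherwise unstimulated cultures. The labels do not say whether the replicates were separate cultures, so the p-values reflect only how far these arrays differ from each other, and that spread may be technical.

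Type I interferons bind the receptor formed by Ifnar1 and Ifnar2, whose kinases Jak1 and Tyk2 phosphorylate transcription factors such as Stat2. Stat2 and Irf9 are parts of the complex that binds the interferon-stimulated response element, while interferon gamma acts through the gamma-activated sequence. The target genes encode sensors of viral RNA, antiviral effectors, guanylate-binding proteins and the machinery of antigen presentation, and astrocytes keep many of them transcribed at a low level without infection.

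The treatment labels were checked with known glucocorticoid targets. The average log2 difference between dexamethasone and vehicle over the 8 times was 3.22 for Fkbp5, 2.14 for Tsc22d3 and 1.86 for Per1. All 3 were called higher at every time from 2 h on, and 2 of them at 1 h. At 0.25 h 0 were called, with differences from -0.03 to 0.17, so these targets do not check the labels at that time. All 14 listed astrocyte markers were tested, and 12 of them were above background on every array. Signals of other cell types were present too: 18 of 19 listed microglia and macrophage markers were tested, and their summed level was higher at 0.25 and 1 h (14.48 to 14.99 on the log2 scale over both treatments) than at 2, 4 and 6 h (12.19 to 12.99). The vehicle 12 h replicate 1 stood apart, with a summed marker level of 14.61 against 12.29 in replicate 2. In bulk RNA, fewer cells of a type and less RNA per cell cannot be told apart. All vehicle titles at 2, 4 and 6 h, 8 titles, carry an extra suffix whose meaning is not given. The dexamethasone titles at these times do not carry it. If it marks a batch, that batch cannot be told apart from treatment at 2, 4 and 6 h. Among the vehicle arrays it cannot be told apart from time.

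Of the 30 tested members, 21 were above background on all 36 arrays. The dimmest were Oas1b, above background on 5 arrays, Irf7 and Ifih1 on 6 each, Mx1 on 12, Mx2 on 14 and Oasl1 on 16, while Dhx58 reached it on 28, Irf8 on 34 and Tap1 on 35. Oas2 and Ifi44 were not above background on any array and Ifit1 on 1, so these 3 were not tested. Values below are normalized log2 intensities, on which background was 5.84. A level can be compared between arrays for the same probe, not between probes.

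Averaged over the 8 times, 11 of 30 members (36.7%) fell under dexamethasone and 0 rose, at an adjusted p under 0.05 in limma with Benjamini-Hochberg adjustment over all tested genes. Of all tested genes, 6.64% were called lower and 5.15% higher. The list was chosen with earlier results of these data known, so this contrast is a description. The median log2 difference of the members was -0.14, with a range from -0.55 to 0.17, and the median of all tested genes was -0.01. The difference was below 0 for 24 of the 30 members. At an unadjusted p under 0.05 the count was 15, against 21.3% of all tested genes. With the replicate number as a block, 14 fell and 2 rose, against 14.2% lower and 9.98% higher over all tested genes. Ddx58, Ifit3 and Parp14 joined those that fell. Ifit2 (0.17, adjusted p = 0.05 as rounded, limma) and Ifi35 (0.16, adjusted p = 0.042, limma) rose. Same-numbered arrays of both treatments deviated together at 0.25, 1, 2, 4 and 12 h, with correlations from 0.36 to 0.86. At 6, 18 and 24 h they did not (0.03, -0.05 and -0.13). The members that fell span transcription factors (Irf1, Irf8), antiviral enzymes (Oasl2, Rsad2, Eif2ak2), GTPases (Gbp2, Gbp3, Igtp), antigen processing (Tap1, Psmb9) and the negative regulator Usp18. The count was 7 without the 12 h arrays, where Usp18, Gbp2, Igtp and Psmb9 lost their calls. It was 2 without the 2, 4 and 6 h arrays, where Oasl2 and Gbp3 alone kept theirs. It was also lower without dexamethasone 24 h replicate 1. Each of these fits had fewer arrays. Calls over all tested genes, in either direction, dropped too, from 11.8% to 9.61% without the 12 h arrays. Without the 2, 4 and 6 h arrays they were 5.91%, so the 2 members left there do not set the list apart.

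**Figure D1:**
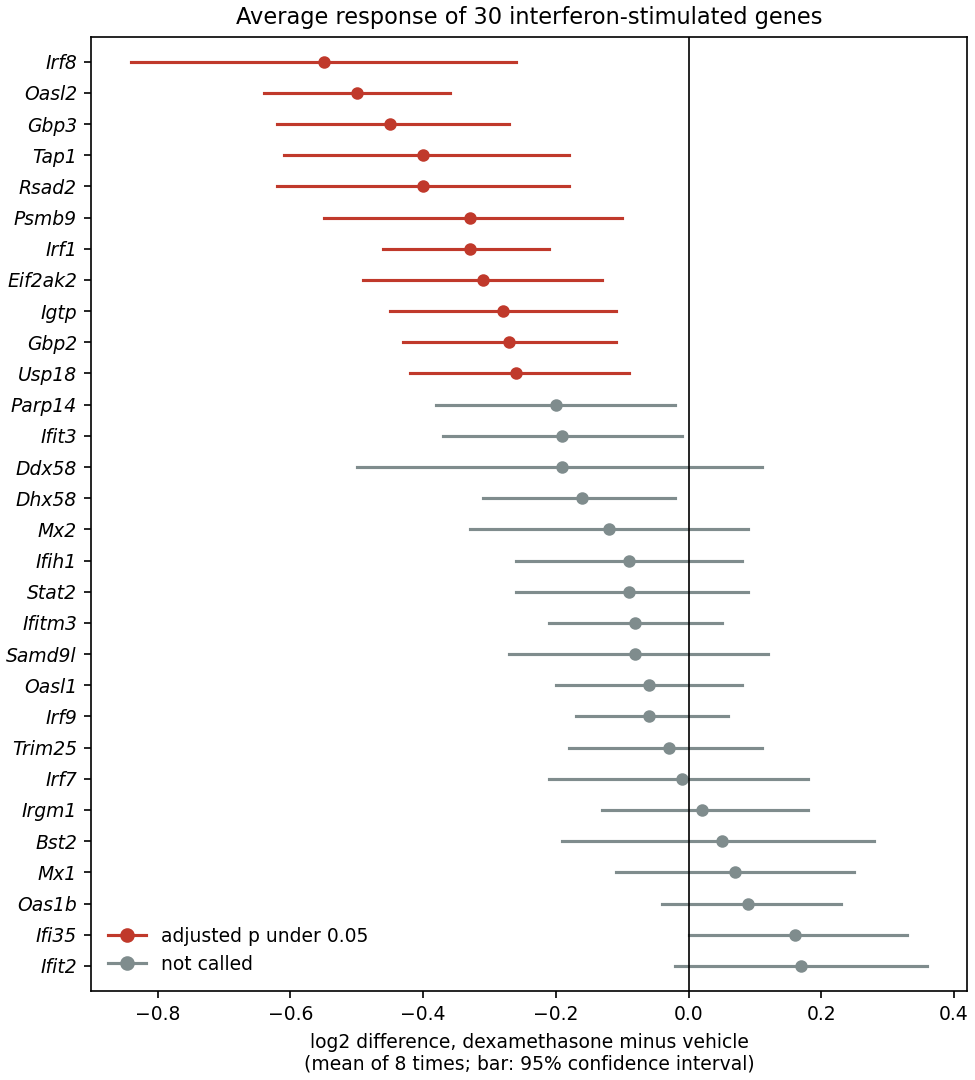
Each row is 1 of the 30 tested genes, the point is the log2 difference between dexamethasone and vehicle averaged over 8 times, and the bar is its 95% confidence interval. Red marks the 11 genes with an adjusted p under 0.05, which run from Irf8 at -0.55 to Usp18 at -0.26; none of the genes to the right of 0 was called.

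The 4 members with the largest average fall were Irf8, Oasl2, Gbp3 and Rsad2, and the 250 bases before their transcription start are shown because the binding sequences of the interferon factors can be read in them. Sequences are from RefSeq on build GRCm38.p6, written 5′ to 3′ on the gene's strand. Capitals mark matches, on either strand, to the core of the interferon-stimulated response element (GAAA, any 2 bases, GAAA) or to the gamma-activated sequence TTCNNNGAA; overlapping matches run together.
Irf8, chr8:120736108-120736357, plus strand: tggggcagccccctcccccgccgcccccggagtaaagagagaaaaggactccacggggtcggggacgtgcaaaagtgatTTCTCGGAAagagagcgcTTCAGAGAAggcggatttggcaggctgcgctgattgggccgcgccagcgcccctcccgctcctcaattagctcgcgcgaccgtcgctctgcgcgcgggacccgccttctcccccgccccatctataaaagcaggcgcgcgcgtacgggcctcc
Oasl2, chr5:114896684-114896933, plus strand: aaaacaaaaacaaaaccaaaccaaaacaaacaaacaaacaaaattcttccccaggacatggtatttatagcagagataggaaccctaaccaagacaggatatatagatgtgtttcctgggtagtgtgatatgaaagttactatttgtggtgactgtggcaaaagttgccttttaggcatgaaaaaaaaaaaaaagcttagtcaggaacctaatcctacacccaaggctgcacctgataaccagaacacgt
Gbp3, chr3:142559794-142560043, plus strand: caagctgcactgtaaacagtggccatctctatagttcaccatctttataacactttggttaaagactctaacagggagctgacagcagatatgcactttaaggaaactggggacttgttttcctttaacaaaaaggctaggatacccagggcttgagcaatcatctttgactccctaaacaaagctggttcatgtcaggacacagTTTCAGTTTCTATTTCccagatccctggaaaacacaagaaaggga
Rsad2, chr12:26456453-26456702, minus strand: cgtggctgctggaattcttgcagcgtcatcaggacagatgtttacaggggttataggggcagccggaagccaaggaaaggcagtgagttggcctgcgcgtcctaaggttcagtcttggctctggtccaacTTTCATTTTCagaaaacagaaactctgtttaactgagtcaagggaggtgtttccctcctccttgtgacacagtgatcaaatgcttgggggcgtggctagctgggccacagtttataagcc

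The Irf8 window holds 2 gamma-activated sequences, the Gbp3 window 2 overlapping response element cores, the Rsad2 window 1 core, and the Oasl2 window neither. Irf8 and Gbp3 each have a second window, with no match. Windows were at hand for 28 of the 35 genes. A response element core was found in 10 of the 28 genes, whereas 2.98% of 32851 windows hold it; by call, these were 4 of the 10 members that fell and have a window (Rsad2, Gbp2, Gbp3, Igtp), 4 of the 14 tested but not called (Stat2, Ifit3, Bst2, Irgm1), and Ifit1 and Isg15, which were not tested. The gamma-activated sequence was found in 6 of 28, against 7.02% of all windows: 4 of the 10 that fell (Irf1, Irf8, Eif2ak2, Igtp) and 2 of the 14 not called (Ifit2, Bst2). The palindromic glucocorticoid response element (AGAACA, any 3 bases, TGTTCT) was found in 0 of 28 and in 0.00913% of all windows. A gene with several windows counts if any window matched. These are matches of letters in a short window, not sites shown to be bound.

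Among the transcription factors, Irf1, which interferon gamma induces and which activates further target genes, fell by 0.33 ± 0.06 (SE) on average (adjusted p = 3e-04, limma). Its 18 dexamethasone arrays had a lowest, median and highest log2 intensity of 9.95, 10.71 and 11.35, and its 18 vehicle arrays 10.54, 11.05 and 11.6, so the ranges pooled over time overlapped. The fall was deepest at 2 h, where the dexamethasone arrays stood at 10.44, 10.42 and 9.95 and the vehicle arrays at 11.25, 11.3 and 10.95. Every dexamethasone array at 2 h lay below every vehicle array. That difference of -0.90 ± 0.15 (a 1.87-fold fall, adjusted p = 6e-04, limma) was the only member call at 2 h, where 0.126% of all tested genes were called lower. It kept its call when any of the 6 arrays was left out, with values from -1.01 to -0.74, and with the replicate number as a block (adjusted p = 3.4e-05). A second Irf1 probe differed by -0.91 ± 0.18 at 2 h, a call in the fit over all probes (adjusted p = 0.0079, limma), and 2 dimmer probes gave -0.52 and -0.50, not called. By 24 h the Irf1 difference was 0.06 ± 0.18.

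Irf8, a factor of myeloid cells that also acts in interferon responses, fell by 0.55 ± 0.14 on average (adjusted p = 0.008, limma). Its dexamethasone arrays had a lowest, median and highest value of 5.52, 6.31 and 8.69, and its vehicle arrays 6.24, 7.01 and 8.71. The overlap between treatments comes with a wide spread over time, described below with the microglia markers. Leaving out any 1 array kept the call, with values from -0.69 to -0.42.

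Irf9 and Stat2, parts of the complex that binds the response element, were not called: the average difference was -0.06 ± 0.06 for Irf9 and -0.09 ± 0.08 for Stat2. Irf7, which amplifies type I interferon production, gave -0.01 ± 0.09 at a level mostly under background.

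Of the 2′-5′ oligoadenylate synthetase family, Oasl2, an antiviral synthetase-like protein, showed the smallest adjusted p of all 30 members, at 6e-06 (limma), with an average fall of 0.50 ± 0.07. Its dexamethasone arrays ranged from 7.12 through a median of 7.89 to 8.62, and its vehicle arrays from 7.48 through 8.29 to 8.94. The difference was 0.14 ± 0.20 at 0.25 h and -0.14 ± 0.16 at 2 h, neither of them called. At 6 h the dexamethasone arrays stood at 7.27 and 7.32 and the vehicle arrays at 8.16 and 8.08, a difference of -0.82 (adjusted p = 0.025, limma). At 12 h they stood at 8 and 7.5 against 8.87 and 8.87, a difference of -1.12 ± 0.20 (2.17-fold, adjusted p = 0.00073, limma). At 18 h they stood at 7.79 and 7.84 against 8.67 and 8.84, a difference of -0.94 (adjusted p = 0.0046, limma). At each of these times both dexamethasone arrays lay below both vehicle arrays. The 12 h call held without any 1 of its arrays (-1.37 to -0.87), whereas the 6 h call was lost without any 1 of the 4 (values from -0.86 to -0.78, adjusted p from 0.15 to 0.25) and the 18 h call was lost when dexamethasone replicate 1 was left out (-0.92) and when vehicle replicate 2 was (-0.86), with adjusted p of 0.063 and 0.093. A dim second probe, above background on 15 arrays, gave -0.06 ± 0.07 on average, and at 12 h -0.37 ± 0.21. Oasl1 (-0.06 ± 0.07) and Oas1b (0.09 ± 0.06) were near background and not called.

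Eif2ak2, the kinase PKR that halts translation when it binds double-stranded RNA, fell by 0.31 ± 0.09 on average (adjusted p = 0.016, limma). Its dexamethasone arrays had a lowest, median and highest value of 9.28, 9.87 and 10.19 and its vehicle arrays 9.58, 9.99 and 10.77, and its difference was below 0 at all 8 times. The cytosolic RNA sensors were not called on average without the block: Ddx58 (RIG-I) differed by -0.19 ± 0.15, Dhx58 (LGP2) by -0.16 ± 0.07 and Ifih1 (MDA5) by -0.09 ± 0.08. Ifih1 at 0.25 h had values of 4.13 and 4.96 under dexamethasone and 5.84 and 5.59 under vehicle, all but 1 under background, with an adjusted p of 1. No fold is given for it.

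Among antiviral effectors, Rsad2 (viperin, which blocks the replication of many viruses) fell by 0.40 ± 0.11 on average (adjusted p = 0.013, limma). Its dexamethasone arrays ranged from 6.12 through a median of 6.97 to 7.95 and its vehicle arrays from 6.93 through 7.39 to 8.1. At 4 h they stood at 6.46, 6.81 and 6.12 against 7.46, 7.34 and 7.23, and at 6 h at 6.88 and 6.89 against 7.92 and 8.1. The groups did not overlap at either time, and the differences were -0.89 ± 0.26 and -1.13 ± 0.32, with adjusted p of 0.075 and 0.066 (limma). At 18 h the difference was -0.02 ± 0.32. Usp18, which removes Isg15 from proteins and restrains the type I receptor, fell by 0.26 ± 0.08 (adjusted p = 0.034, limma). Its dexamethasone values were 7.26, 7.84 and 8.25 (lowest, median, highest) and its vehicle values 7.68, 8.09 and 8.45. A dim second Usp18 probe, above background on 13 arrays, gave -0.03 ± 0.15 on average. Without the block the Usp18 call was lost when any of 14 of the 36 arrays was left out. With the replicate number as a block its average fall was 0.26 ± 0.05 (adjusted p = 0.0011, limma).

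Parp14, an ADP-ribosyltransferase, was called at 4 h alone without the block, and at 4 and 6 h with it. Its dexamethasone arrays at 4 h stood at 7.96, 8.41 and 8.12 and its vehicle arrays at 8.81, 9.13 and 9, with no overlap, and the difference was -0.82 ± 0.21 (1.76-fold, adjusted p = 0.03, limma). The call was lost without dexamethasone replicate 1 (-0.72), dexamethasone replicate 3 (-0.80), vehicle replicate 2 (-0.74) or vehicle replicate 3 (-0.81). By 24 h its difference was 0.31 ± 0.26, and its average of -0.20 ± 0.09 was not called without the block. A dim second Parp14 probe, above background on 5 arrays, gave 0.07 ± 0.23 at 4 h.

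The other effectors were not called on average without the block. The tetratricopeptide proteins Ifit2 and Ifit3 gave 0.17 ± 0.09 and -0.19 ± 0.09, and Ifi35 gave 0.16 ± 0.08. Ifit2 and Ifi35 were above 0 at 6 of 8 times each. Bst2 (tetherin) gave 0.05 ± 0.11, Ifitm3, which blocks viral entry, -0.08 ± 0.06, Samd9l -0.08 ± 0.09 and the ubiquitin ligase Trim25 -0.03 ± 0.07. The dynamin-like GTPases Mx1 and Mx2 gave 0.07 ± 0.09 and -0.12 ± 0.10 at levels near background.

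The guanylate-binding and immunity-related GTPases, which attack the vacuoles of intracellular pathogens, fell in 3 of 4 cases. Gbp3 fell by 0.45 ± 0.08 (adjusted p = 0.00042, limma), with dexamethasone values of 8.13, 9.03 and 9.53 (lowest, median, highest) and vehicle values of 8.9, 9.31 and 9.85. At 12 h its dexamethasone arrays stood at 8.71 and 8.13 and its vehicle arrays at 9.45 and 9.13, a difference of -0.87 ± 0.25 (adjusted p = 0.036, limma) that was not called without dexamethasone replicate 2 (-0.58) or vehicle replicate 1 (-0.71). A second Gbp3 probe of like brightness gave a smaller average fall of 0.28 ± 0.08, called in the fit over all probes (adjusted p = 0.021, limma), and -0.45 ± 0.24 at 12 h, not called.

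Igtp (Irgm3) fell by 0.28 ± 0.08 on average (adjusted p = 0.021, limma), with dexamethasone values of 7.84, 8.56 and 9.25 and vehicle values of 8.47, 8.77 and 9.18. In the fit with no block its call was lost without vehicle 0.25 h replicate 1, dexamethasone 1 h replicate 1 or dexamethasone 24 h replicate 1. With the replicate number as a block the Igtp fall was 0.28 ± 0.05 (adjusted p = 4e-04, limma). Gbp2 fell by 0.27 ± 0.08 (adjusted p = 0.023, limma), with dexamethasone values of 9.04, 9.83 and 10.36 and vehicle values of 9.59, 10.09 and 10.52. In the fit with no block its call was lost without dexamethasone 6 h replicate 1, vehicle 6 h replicate 2 or dexamethasone 24 h replicate 1. With the replicate number as a block the Gbp2 fall was 0.27 ± 0.06 (adjusted p = 0.0017, limma). A dim second Gbp2 probe, above background on 12 arrays, gave -0.01 ± 0.14 on average. Irgm1 gave 0.02 ± 0.08 by its brightest probe and -0.19 ± 0.06 by a dimmer one (not called, adjusted p = 0.05 as rounded), so its probes disagree.

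Of the antigen-processing genes, Tap1, a subunit of the peptide transporter, fell by 0.40 ± 0.11 (adjusted p = 0.011, limma), with dexamethasone values of 5.56, 6.41 and 6.75 and vehicle values of 6.16, 6.72 and 7.11. Psmb9, a catalytic subunit of the immunoproteasome, fell by 0.33 ± 0.11 (adjusted p = 0.049, limma), with dexamethasone values of 6.83, 7.49 and 8.65 and vehicle values of 7.32, 7.88 and 8.73. Without the block the Psmb9 call lay at the threshold and was lost when any of 26 of the 36 arrays was left out. With the replicate number as a block its average fall was 0.33 ± 0.04 (adjusted p = 9.7e-06, limma).

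Over time the members that fell on average did not share 1 course. Irf1 was lowest relative to vehicle at 2 h, Igtp at 4 h, Usp18, Rsad2 and Gbp2 at 6 h, Irf8, Oasl2, Gbp3, Psmb9 and Tap1 at 12 h, and Eif2ak2 at 18 h. Without vehicle 12 h replicate 1, the array with high microglia markers, the 12 h difference was -0.24 for Irf8 (-0.70 at 4 h), -0.71 for Gbp3 (-0.77 at 18 h) and -0.73 for Psmb9 (-0.78 at 18 h), so for these 3 the time of the lowest value rests on that array. The median difference of the 11, with all arrays, was -0.05 at 0.25 h, -0.16 at 1 h, -0.11 at 2 h, -0.45 at 4 h, -0.58 at 6 h, -0.65 at 12 h, -0.53 at 18 h and -0.20 at 24 h. As these 11 were chosen on the average of the same values, this is a description. Over all 30 members the median ran from -0.04 at 0.25 h, -0.06 at 1 h and -0.08 at 2 h to -0.33 at 4 h, -0.26 at 6 h and -0.19 at 12 h, then -0.09 at 18 h and -0.05 at 24 h.

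**Figure D2:**
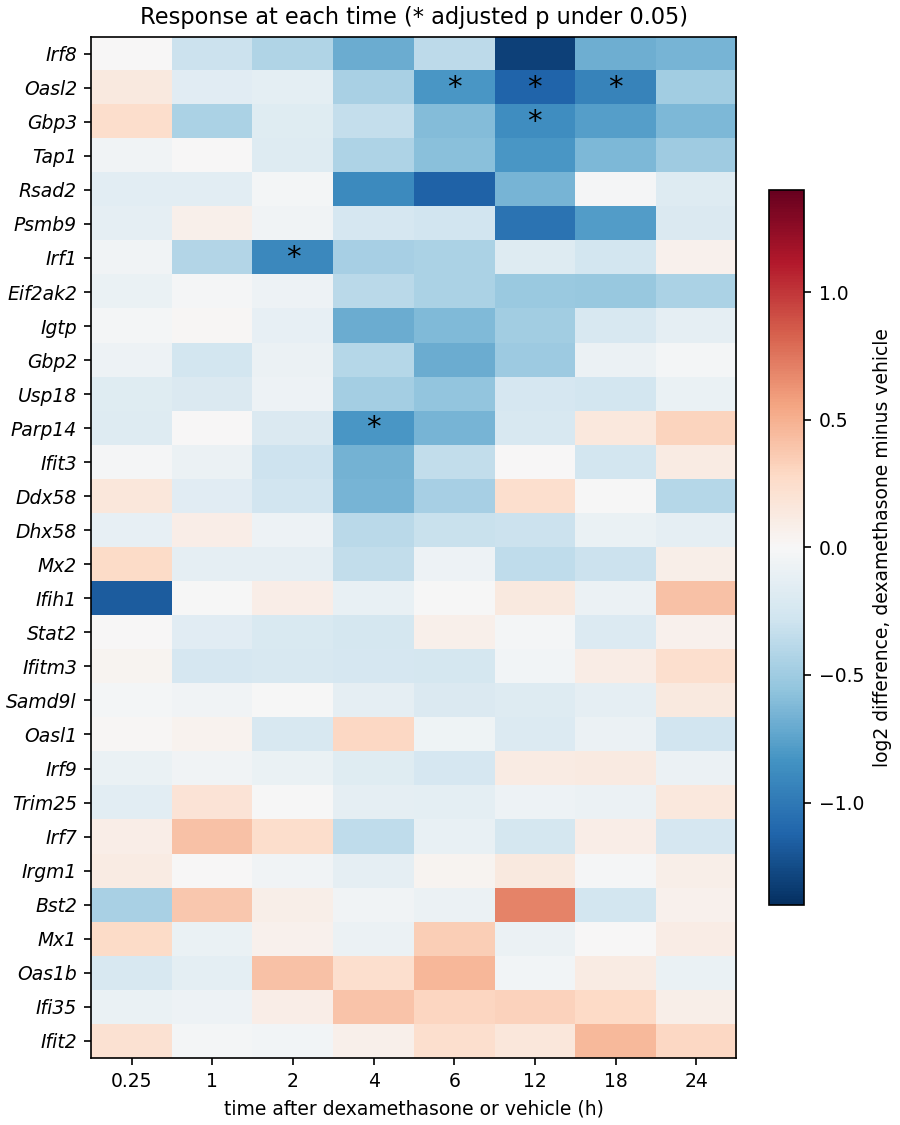
Rows are the 30 tested genes in the order of their average difference, columns are the 8 times, and the colour is the log2 difference between dexamethasone and vehicle (blue lower, red higher). Asterisks mark the 6 differences with an adjusted p under 0.05: Irf1 at 2 h, Parp14 at 4 h, Oasl2 at 6, 12 and 18 h, and Gbp3 at 12 h.

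At single times 1 member was called at 4 h, 1 at 6 h, 2 at 12 h and 1 at 18 h, all lower, where 0.815%, 0.684%, 3.48% and 1.97% of all tested genes were called lower. None was called at 0.25, 1 or 24 h, where 0%, 0.00485% and 2.03% of all genes were called lower. At an unadjusted p under 0.05, with the share of all tested genes after each count, the members numbered 1 of 30 at 0.25 h (0.984%), 1 at 1 h (1.47%), 2 at 2 h (4.02%), 11 at 4 h (8.49%), 9 at 6 h (7.47%), 6 at 12 h (16.3%), 3 at 18 h (10.4%) and 2 at 24 h (12%). At 0.25, 1, 2, 4 and 12 h arrays with the same replicate number deviated together, with correlations from 0.36 to 0.86. The number was therefore also used as a block. With it, 9 members fell at 4 h (adjusted p under 0.05, limma), where 3.29% of all genes were called lower: Rsad2 (-0.89), Parp14 (-0.82), Igtp (-0.70), Irf8 (-0.70), Ifit3 (-0.66), Ddx58 (-0.65), Usp18 (-0.48), Irf1 (-0.47) and Oasl2 (-0.45). Blocked adjusted p-values for these ran from 9.4e-05 for Rsad2 to 0.036 for Oasl2.

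Non-overlap of arrays was counted for every gene in the same way. At 4 h all dexamethasone arrays lay below all vehicle arrays for 9 of 30 members (30%), against 7.84% of all tested genes, and above them for 2, against 6.52%. At 6 h, with 2 arrays a group, 19 members (63.3%) lay below and 5 above, against 27.8% and 23.9% of all genes. At 18 h the counts were 13 below and 4 above, against 30.9% and 25.1%. At 12 h they were 8 and 2, against 18.9% and 13.7%, and at 24 h 8 and 4, against 21.1% and 23.4%. Earlier they were 2 and 2 at 0.25 h, against 8.19% and 8.58%, 5 and 0 at 1 h, against 9.29% and 9.17%, and 1 and 1 at 2 h, against 2.55% and 2.99%.

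**Figure D3:**
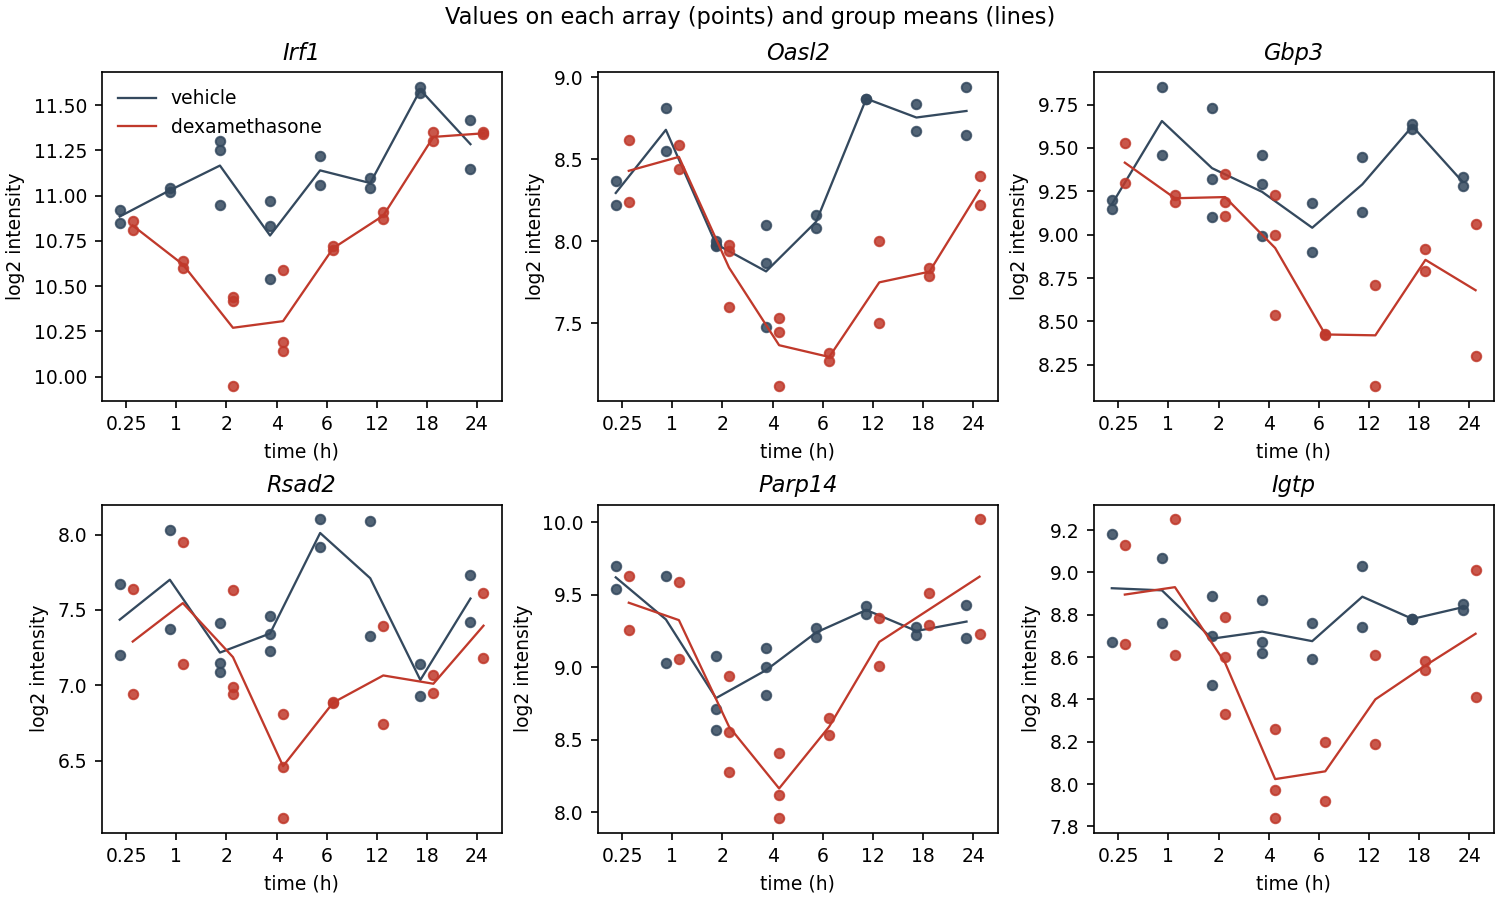
Points are the normalized log2 intensities of 6 genes on each array, and lines join group means, with dexamethasone in red and vehicle in dark blue. The 2 treatments do not overlap at 1, 2, 6, 12 and 18 h for Irf1, at 4 and 6 h for Rsad2, and at 6, 12, 18 and 24 h for Oasl2, and all 3 dexamethasone arrays of Parp14 and of Igtp lie below their vehicle arrays at 4 h.

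Whether the response changed with time was tested directly, and the share of members called was near that of all tested genes. The mean response at 12, 18 and 24 h minus that at 1, 2 and 4 h was called for 2 of 30 members, against 4.9% of all tested genes: it was 0.47 ± 0.14 for Irf1 (adjusted p = 0.046, limma), whose fall came early, and -0.60 ± 0.15 for Oasl2 (adjusted p = 0.02, limma), whose fall came late. In an F-test across all 8 times Oasl2 was the only member called (adjusted p = 0.049, limma), against 2.74% of all tested genes. The F-test count of 1 became 0 or 2 when any of 30 of the 36 arrays was left out, and was 0 with no filter on dim probes, with trended and robust variances or with the mean of all probes of a gene. The Irf1 late-minus-early call was lost when any of 21 of the 28 arrays in it was left out, and the Oasl2 call without any of 4: vehicle 1 h replicate 1, dexamethasone 12 h replicate 2, vehicle 18 h replicate 2 or vehicle 24 h replicate 2 (adjusted p up to 0.057).

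Irf8 moved with the microglia and macrophage markers across time. Its vehicle arrays stood at 8.71 and 8.53 at 0.25 h and 8.17 and 8.42 at 1 h, and from 6.26 to 7.1 at 2, 4 and 6 h. The summed marker level of the vehicle arrays was 14.5 to 14.99 at 0.25 and 1 h and 12.19 to 12.99 at 2, 4 and 6 h. At 12 h the Irf8 vehicle arrays were far apart, at 8.38 and 6.24, and so were the summed markers, at 14.61 and 12.29, while the dexamethasone arrays stood at 6.34 and 5.66 for Irf8 and 12.53 and 12.18 for the markers. The Irf8 difference at 12 h was -1.31 with all arrays (adjusted p = 0.066, limma), -0.24 without vehicle replicate 1 and -2.38 without vehicle replicate 2. At 12 h 5 of 18 markers were called lower and 0 higher, with a median difference of -1.02. The 9 tested oligodendrocyte lineage markers had a median of -1.03 at 12 h, with 1 called lower. For astrocyte, neuron, fibroblast and endothelium markers the 12 h medians ran from -0.14 to 0.37. Averaged over the times 3 microglia and macrophage markers were lower (Aif1, Cd14, Cx3cr1) and 1 higher (Fcgr3), with a median of -0.18. At 18 and 24 h the summed level was 13.26 to 13.62 under vehicle and 13.03 to 13.17 under dexamethasone, and at 2 to 6 h 12.19 to 12.99 and 12.21 to 12.88. The part of these cells in the member results was not tested. Without the 12 h arrays the Irf8 average was -0.45 (adjusted p = 0.0037, limma). Over the 30 members the 12 h median was -0.19 with all arrays and -0.06 without vehicle replicate 1, when 1 member was called in place of 2; without vehicle replicate 2, 4 were called.

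**Figure D4:**
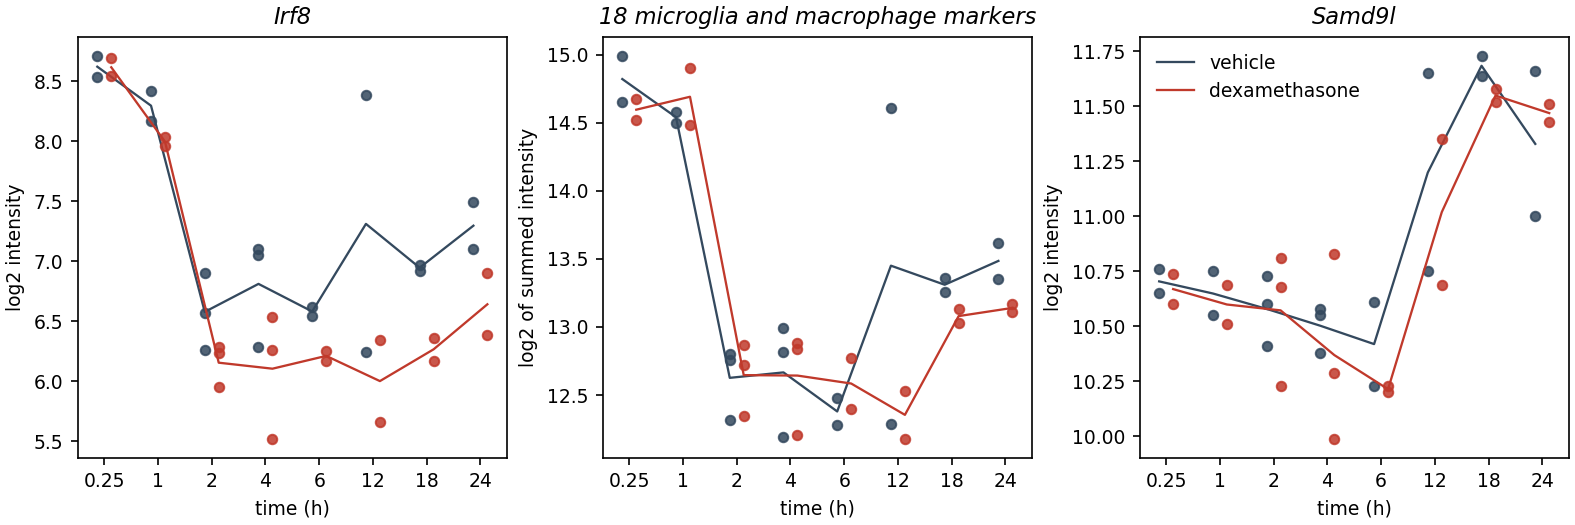
Points are single arrays and lines join group means, for Irf8 (left), the summed intensity of 18 microglia and macrophage markers on a log2 scale (middle) and Samd9l (right). Irf8 and the markers are both high at 0.25 and 1 h and on 1 of the 2 vehicle arrays at 12 h, at 8.38 and 14.61, whereas the group means of Samd9l are highest at 18 and 24 h in both treatments.

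Single members also differed between vehicle groups of different times, though at 18 and 24 h their share was near that of all tested genes. At 0.25 and 1 h, 4 of 30 were higher than at 2, 4 and 6 h (6.96% of all tested genes were called higher): Irf8 by 1.80 ± 0.26, Psmb9 by 0.60 ± 0.20, Oasl2 by 0.51 ± 0.12 and Dhx58 by 0.38 ± 0.13. In the same contrast 17 of 18 microglia and macrophage markers were higher, with a median of 2.09. Of 9 oligodendrocyte lineage markers 5 were higher (median 1.77), and of 14 astrocyte markers 6 (median 0.58). The median was -0.27 for neuron, -0.16 for fibroblast and 0 for endothelium markers. At 18 and 24 h, 3 of 30 members were higher than at 2, 4 and 6 h (9.13% of all tested genes were called higher): Samd9l by 1.01 ± 0.17, Oasl2 by 0.80 ± 0.12 and Irf1 by 0.40 ± 0.11. There 6 of 18 microglia and macrophage markers were higher, with a median of 0.43. Of 14 astrocyte markers 5 were higher and 1 lower (median 0.31), and of 9 oligodendrocyte lineage markers 2 were higher (median 0.12). The late median was -0.19 for neuron, -0.44 for fibroblast and -0.23 for endothelium markers. Samd9l ranged from 10.23 to 10.73 over the 8 vehicle arrays at 2, 4 and 6 h and from 11 to 11.73 over the 4 at 18 and 24 h, so the ranges did not meet. The Oasl2 vehicle level was 8.22 to 8.81 at 0.25 and 1 h, 7.48 to 8.16 at 2 to 6 h, 8.87 on both arrays at 12 h and 8.65 to 8.94 at 18 and 24 h. Time, handling and processing batch cannot be told apart in these contrasts. The Dhx58 difference was lost when any of 11 of its 12 arrays was left out (adjusted p up to 0.18), vehicle 2 h replicate 2 being the exception. The Psmb9 difference was lost without any of 7 arrays (vehicle 0.25 h replicate 1, 1 h replicate 2, 2 h replicates 2 and 3, 4 h replicate 3, and 6 h replicates 1 and 2, adjusted p up to 0.3), the early Oasl2 difference without vehicle 1 h replicate 2 (0.45, adjusted p = 0.055) and the late Irf1 difference without vehicle 24 h replicate 1 (0.34, adjusted p = 0.097).

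Genes of the pathway outside the members were read against the same shares of all tested genes on average, 6.64% lower and 5.15% higher. Of 10 listed interferon ligands 2 could be tested, and neither was called. Of 9 tested receptor and JAK-STAT genes, 1 rose and 0 fell on average: Ifngr1, a chain of the interferon gamma receptor, rose by 0.56 ± 0.08 (adjusted p = 5.1e-06, limma), with 1.11 ± 0.22 at 12 h. Ifnar2 (-0.04), Ifngr2 (-0.02), Jak1 (-0.02), Tyk2 (-0.11) and Stat3 (0.04) were not called. Among 7 tested inhibitors of the pathway, Socs3 fell by 0.30 ± 0.08 and the phosphatase Ptpn6 by 0.45 ± 0.14, Pias1 rose by 0.22 ± 0.05, and Socs1 gave -0.08. Of 11 tested genes that sense nucleic acids and microbes, 0 rose and 2 fell, Tlr2 by 0.63 and the adaptor Traf3 by 0.50. At 12 h, where 1 vehicle array had high microglia markers, Ptpn6 differed by -1.28 (not called) and Tlr2 by -1.20 (called lower). The part of that array in their average falls was not tested. Of 5 further interferon regulatory factor genes and partners 1, the co-repressor Irf2bp2, rose by 0.50, while Irf3 gave -0.04.

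A second list of interferon-stimulated genes outside the 35, also chosen with earlier results of these data known, held 35 tested genes of 52 listed. Of these 35, 4 fell, where 6.64% of all tested genes were called lower, and 0 rose on average (Cxcl10, Ccl5 by 0.41, Rnf213 by 0.27 and Trim21 by 0.22), and the median of the list, -0.14, equalled that of the members to 2 decimals. Cxcl10, a chemokine that attracts T cells, had the largest fall of either list, 1.70 ± 0.09 (adjusted p = 1.9e-13, limma). Its 3 dexamethasone arrays at 4 h stood at 5.81, 5.96 and 5.81, and its vehicle arrays at 8.07, 7.94 and 8. The groups did not overlap, at a fitted difference of -2.14 ± 0.22 (adjusted p = 2.6e-07, limma), but only 1 of the 3 dexamethasone arrays was above background, which limits how exactly that difference is known.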

How the data were processed

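Total RNA of 36 astrocyte culture samples was hybridized as biotinylated cRNA to Illumina BeadChips and read with GenomeStudio (version not given), per the labels and the submitters' processing notes. The deposited table holds 1 linear intensity per probe (45281 probes), which the authors had quantile normalized without background subtraction, as the values show. Apart from the 10 lowest values, sorted columns differed by at most 0.5, and array medians ran from 93.7 to 94. From the second deposited table only symbols were read; its 72 columns of per-sample values match no label and were not used. In place of read depth, signal over background and the number of arrays limit precision.

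Intensities were corrected by normexp (offset 16) and put on the log2 scale. Background (91.7, or 5.84 corrected) was the 99th percentile of values mirrored about the mode of 70.2, and a probe had to exceed it on 2 or more arrays (29540 did), with 1 probe per symbol by highest mean. Probes with a date (40) or several symbols (18) were left out. limma 3.58.1 in R 4.3.3 fitted 16 group means (20 residual and 5.19 prior degrees of freedom) with Benjamini-Hochberg adjustment over 20625 genes and a threshold of 0.05. The scripts were tested on simulated data. Figures used matplotlib 3.10.9 in Python 3.11.15.

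Same-numbered arrays of both treatments correlated in their deviations from group means at 2 h (0.68 to 0.86) and 4 h (0.36 to 0.57), which was taken as pairing. With 2 arrays a group there was 1 correlation a time: 0.8 at 0.25 h, 0.73 at 1 h and 0.51 at 12 h. At 6, 18 and 24 h it was 0.03, -0.05 and -0.13. Every member was described; per-array values went to members called on average or at a single time, and further pathway genes came from a short list of names or the largest called changes; 1 such gene is not reported here. The members and lists were chosen with earlier results of these data known. Alternatives covered background correction, offset, filter, normalization, weights, variances, the block, probe choice, and arrays and times left out.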

Additional observations from a re-analysis of the deposited data

Results flagged for a closer look

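The response to dexamethasone differed between times for 2 of 30 members. That share was near the 4.9% of all tested genes called, so it does not set the members apart. For Irf1 the late response (12, 18 and 24 h) minus the early response (1, 2 and 4 h) was 0.47 on the log2 scale (adjusted p = 0.046, limma), with an Irf1 difference of -0.90 at 2 h and 0.06 at 24 h; this call was lost when any of 21 of 28 arrays was left out. For Oasl2 the same contrast was -0.60 (adjusted p = 0.02, limma), with an Oasl2 difference of -0.14 at 2 h and -1.12 at 12 h; this call was lost without any of 4 arrays. The F-test across the 8 times gave an adjusted p of 0.049 (limma) for Oasl2, a call that several other settings did not give.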

How the results depend on the processing

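The count of members called on average, 11, was 7 without the 12 h arrays and 2 without the 2, 4 and 6 h arrays, and stayed within 1.5 times in the other settings, including 16 (14 lower, 2 higher) with the replicate block; leaving out 1 array gave 7 to 11. Of members not called, the average turned sign without the 2, 4 and 6 h arrays for Irf7 (0.02), Irf9 (0.01), Oas1b (-0.07), Trim25 (0.01), Parp14 (0.01) and Ifitm3 (0.02), without the 12 h arrays for Irf7 (0.02) and Bst2 (-0.04), without the 0.25 and 1 h arrays for Ifih1 (0.08) and with the mean of all probes for Irgm1 (-0.08); leaving out 1 array gave Irf7 -0.06 to 0.03, Bst2 -0.03 to 0.12 and Irgm1 0 to 0.05. Percentages below are shares of all tested genes called, in either direction, in the same fit. For the average they were 11.8%, 9.61% without the 12 h arrays and 5.91% without the 2, 4 and 6 h arrays. The replicate block raised the counts at 4 h to 9 (6.47%), 6 h to 6 (5.26%) and 12 h to 10 (18.6%). At 18 h it gave 4 (9.35%) and at 24 h 2 (11.3%). It raised them for late minus early to 4 (13.6%) and for the F-test to 5 (10.2%). For the vehicle contrasts the block gave 7 (early, 29.2%) and 10 (late, 39.1%), which does not set the members apart. At 6, 18 and 24 h same-numbered arrays did not deviate together (correlations of 0.03, -0.05 and -0.13). Array weights gave 5 at 4 h, 11 at 6 h, 0 at 12 h, 7 at 18 h, 3 in the F-test and 12 in the late vehicle contrast. With the mean of all probes they were 0 at 2, 4, 6 and 18 h, 1 at 12 h, 0 for late minus early, 0 in the F-test and 6 in the late vehicle contrast. With the arrays of each time alone they were 0 at 2 h, 2 at 4 h, 11 at 6 h, 0 at 12 h and 7 at 18 h, on fewer arrays. Cyclic loess gave 3 at 4 h and 2 at 6 h. With no filter the counts were 1 for late minus early, 0 in the F-test and 2 in the early vehicle contrast, and trended robust variances gave 0 in the F-test. Leaving out 1 array gave 0 to 0 at 0.25 and 1 h, 1 to 1 at 2 h, 0 to 2 at 4 h, 0 to 0 at 6 h, 1 to 5 at 12 h, 0 to 1 at 18 h, 0 to 1 at 24 h, 0 to 2 for late minus early, 0 to 2 in the F-test, 1 to 4 in the early and 2 to 4 in the late vehicle contrast. The cause of these changes was not tested.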
